A study of Mus musculus with 9 samples.

Results

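The ubiquitin-conjugating enzymes (E2 enzymes) of the mouse were followed in developing red blood cells of animals fed a low iron diet. Members were all genes whose symbol begins with Ube2, 2 symbols excepted, found through the RefSeq accession of each array probe. This gave 33 symbols with 61 probes, of 20018 named genes on the array. Of these, 29 passed the filter on dim probes (all 3 arrays of some group well above background) and were tested among 14506 genes. The rule reads names and no measured value, but the family was chosen with earlier results of these data known.

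The cells were erythroblasts of the gate that the labels call Subset II, sorted from the marrow of C57BL/6J mice labelled wild type and female. The 3 groups were normal diet (3 samples), low iron diet for 3 weeks from weaning (3 samples) and low iron diet for 7 weeks from weaning (3 samples). The age of the mice on normal diet is not given in the sources used here, so time on the diet and age cannot be told apart. No transgene, knockout or drug enters any group. Total RNA was amplified, labelled with Cy3 and hybridised to 1-colour Agilent arrays, 1 sample per array.

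Ubiquitin is passed from an activating enzyme (E1) to the catalytic cysteine of an E2 enzyme, and then, usually with a ligase (E3), to a substrate. The E2 enzyme often decides whether a single ubiquitin or a chain is built, and which chain; a few E2 enzymes carry ubiquitin-like proteins such as NEDD8 or ISG15 in place of ubiquitin. Late erythroid cells clear most of their proteins and organelles before they become red cells: Ube2o, which acts as E2 and E3 in 1 protein, removes unassembled globin and ribosomal proteins in reticulocytes, and Ube2h works with the CTLH ligase built around Maea. Ube2l6, the E2 enzyme of ISG15, is also abundant in erythroid cells.

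Levels are log2 signal minus the array's own 75th percentile of signal, and a difference is a log2 difference of group means with its standard error (SE) from limma, whose adjusted p covers all 14506 genes. A gene was called when that adjusted p was under 0.05. The 75th percentile itself was a signal of 1499 to 1616 with normal diet, 1677 to 1837 at 3 weeks and 791.7 to 1087 at 7 weeks, and the share of spots well above background was 65.5% to 66.3%, 56.8% to 70.8% and 45.2% to 53.6%. Without scaling, the median difference of all genes at 7 weeks was -1.07 against normal diet and -1.09 against 3 weeks, so differences are relative to that shift. Spike-in control probes, as log2 signal minus the 75th percentile, averaged 1.08 with normal diet, 1.34 at 3 weeks and 4.97 at 7 weeks. Correlations between arrays of a group were 0.981 to 0.987, 0.977 to 0.980 and 0.909 to 0.958 in the same order. The cause of these differences between the groups of arrays was not tested. The arrays of a group shared 1 slide and 1 scan that held no other group, so diet and slide cannot be told apart in any comparison.

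Normal diet replicates 1 and 2 went against their female label. The Y-linked gene Eif2s3y was at 5.12 and 4.82 there, against -3.77 in normal diet replicate 3 and -3.98 to -6.61 in the low iron samples. Xist, expressed from the inactive X chromosome, was at -5.59 and -5.24 there, against -0.73 in replicate 3 and -1.16 to 1.46 in the low iron samples. Differences from normal diet are therefore also given without both libraries, in each paragraph below for the genes it names. They then rest on 1 normal diet sample, assumed to vary like the other groups. In that setting limma called 0 of 14506 genes at 3 weeks and 1 at 7 weeks, with 1588 and 3047 at an unadjusted p under 0.05, and 0 members and 0 of the 117 tested genes of the related lists at either time. Of the 29 members, 27 at 3 weeks and 26 at 7 weeks kept the sign of their difference, beside 89.9% and 93.4% of all genes. The signs that turned were those of Ube2e1 and Ube2e3 at 3 weeks and of Ube2b, Ube2dnl2 and Ube2z at 7 weeks.

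The erythroid label was met by the markers: all 12 erythroid markers measured were well above background on all 9 arrays. Their summed level, in multiples of the 75th percentile signal, was 2472 to 2632 with normal diet, 2087 to 2238 at 3 weeks and 3146 to 4896 at 7 weeks. Of the 12, 4 were called higher and 2 lower at 7 weeks than with normal diet, beside 10.7% and 18.8% of all genes. The 11 monocyte and macrophage markers summed to 41.4 to 62.2, 74.2 to 102.8 and 25.2 to 30.8. Of these, 4 were called higher at 3 weeks and 4 lower at 7 weeks, beside 3.52% and 18.8% of all genes. Between 7 and 3 weeks 7 were lower, beside 19.6% of all genes. Summed levels of 12 neutrophil markers were 226.3 to 651.5, 299.1 to 517.2 and 378.3 to 594.7. Of these, 2 were called higher at 3 weeks and 1 higher at 7 weeks than with normal diet. Between 7 and 3 weeks 2 were higher and 4 lower. The 6 markers of mast cells, basophils and eosinophils tested summed to 13.4 to 24.0, 0.89 to 24.8 and 0.65 to 0.86, with 2 called lower at 7 weeks. The 8 B lineage markers summed to 8.27 to 13.3, 12.7 to 28.2 and 4.72 to 16.3. For 7 T and natural killer cell markers it was 17.8 to 20.2, 17.9 to 24.4 and 22.2 to 38.1. For 7 megakaryocyte and platelet markers it was 23.9 to 57.1, 24.3 to 69.6 and 12.9 to 43.5. These lists gave 2, 1 and 0 calls higher at 3 weeks. At 7 weeks they gave 1, 1 and 0 higher and 1, 0 and 1 lower. The part of these shifts in the results was not tested. In bulk RNA, fewer cells of a type and less RNA per cell cannot be told apart.

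At 3 weeks of low iron diet, 2 of the 29 tested members, Ube2l3 and Ube2a, were lower than with normal diet and 0 were higher. Members called made up 6.90% of those tested; over all genes 11.4% were called, 3.52% higher and 7.88% lower. The median member difference was -0.42 and that of all genes -0.17, with 21 of 29 members below 0. In 16 of 29 members the 3-week and normal diet values did not overlap, a state that 49.5% of all genes shared. With quantile normalization the split was 1 higher and 2 lower, beside 615 higher and 808 lower of all 14506 genes.

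At 7 weeks, 6 members were lower and 1 was higher than with normal diet. The lower members were Ube2t, Ube2q2, Ube2g1, Ube2e3, Ube2g2 and Ube2j2, and the higher member was Ube2o. Members called made up 24.1% of those tested; over all genes 29.5% were called, 10.7% higher and 18.8% lower. The medians were -0.31 for members and -0.26 for all genes, and 12 of 29 members did not overlap, against 47.4% of all genes. Without scaling the split was 0 higher and 15 lower, with quantile normalization 0 and 4, and with the 75th percentile taken over probes above background on all 9 arrays 2 and 3. Over all 14506 genes the same settings gave 454 higher and 6646 lower, 1504 and 2458, and 2198 and 1730.

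Between 7 and 3 weeks, 6 members were higher at 7 weeks and 3 were lower. The higher members were Ube2l3, Ube2a, Ube2e2 (partly not above background), Ube2v1, Ube2q1 and Ube2n, and the lower members were Ube2t, Ube2q2 and Ube2e3. Members called made up 31.0% of those tested; over all genes 37.2% were called, 17.6% higher and 19.6% lower. Member and all-gene medians were -0.06 and -0.13, and 11 of 29 members did not overlap, against 48.4%. This split depended on scaling: it was 5 higher and 6 lower with quantile normalization, and 1 higher and 12 lower with none. Over all 14506 genes it was 2267 higher and 3212 lower, and 826 higher and 6804 lower, in these settings. The 3 comparisons share their samples in pairs, so a sample group that stands apart enters 2 of them.

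**Figure D1:**
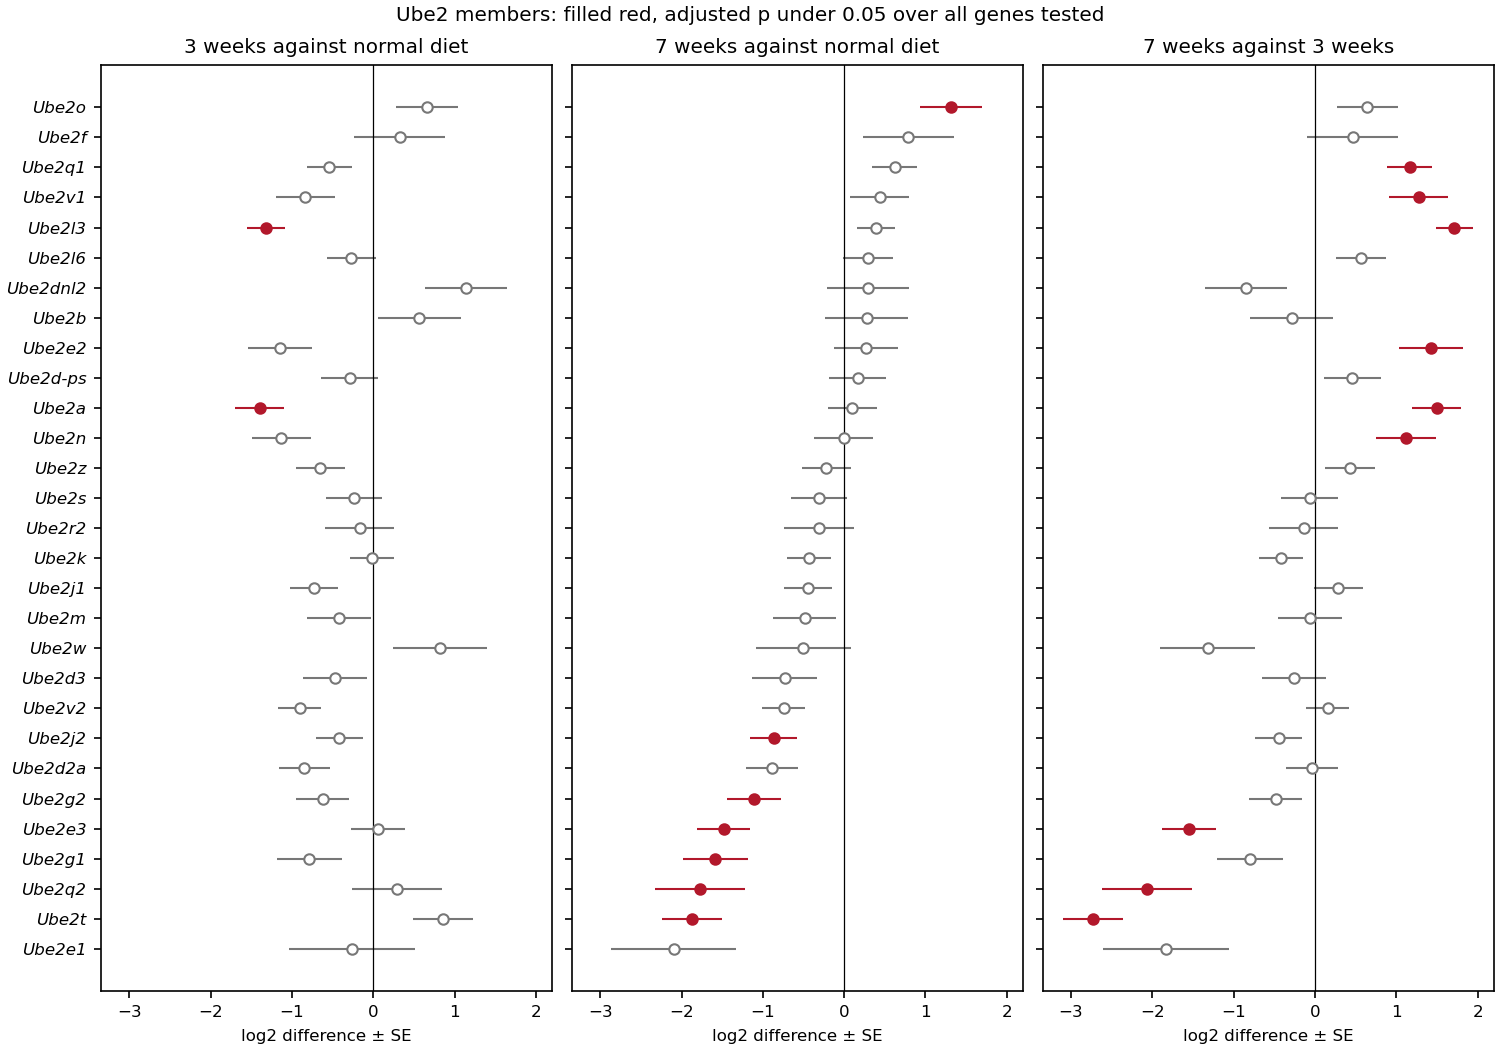
Log2 difference of group means with SE (x axis) for the 29 tested Ube2 members (y axis, ordered by the 7-week difference from normal diet), 1 panel per comparison; filled red points have a limma adjusted p under 0.05 over all genes tested. The panels hold 2, 7 and 9 red points, and Ube2l3 and Ube2a lie left of 0 at 3 weeks and right of 0 in the 7 against 3 weeks panel.

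Promoters are shown for Ube2t, lowest at 7 weeks, and for 3 of the members that were lowest at 3 weeks, Ube2l3, Ube2n and Ube2v1. Each is the stretch of 150 bases that ends just before the gene's start, on the gene's strand, from RefSeq on GRCm38.p6. They lie at chr1:134962415-134962564 (plus strand), chr16:17201493-17201642 (minus), chr10:95515012-95515161 (plus) and chr2:167632006-167632155 (minus). Capitals mark matches to short motifs, searched on both strands. The motif read by erythroid GATA-type factors was written as AGATAA. For the factor NF-Y the motif was CCAAT, for the E2F proteins it was GGCGGGAA, and for the ETS proteins it was CCGGAAG. The interferon-stimulated response element was searched as well, and no motif contains another.
Ube2t: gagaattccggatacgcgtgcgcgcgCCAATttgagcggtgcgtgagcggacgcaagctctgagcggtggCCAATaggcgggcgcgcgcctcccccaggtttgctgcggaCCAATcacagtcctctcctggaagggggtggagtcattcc
Ube2l3: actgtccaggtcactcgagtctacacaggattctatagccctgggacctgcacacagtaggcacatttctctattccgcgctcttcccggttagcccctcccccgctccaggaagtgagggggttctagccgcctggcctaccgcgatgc
Ube2n: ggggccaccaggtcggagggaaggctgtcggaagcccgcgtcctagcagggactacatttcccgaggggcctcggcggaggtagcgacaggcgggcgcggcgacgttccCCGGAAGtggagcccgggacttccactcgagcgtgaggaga
Ube2v1: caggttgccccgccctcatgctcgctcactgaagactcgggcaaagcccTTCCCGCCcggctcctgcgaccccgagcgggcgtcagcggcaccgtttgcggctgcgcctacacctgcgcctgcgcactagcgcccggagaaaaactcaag

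Ube2t had 3 CCAAT matches, Ube2n 1 ETS match, Ube2v1 1 E2F match, read on the opposite strand, and Ube2l3 0 in this window. Ube2a and Ube2q1, whose mean was also lowest at 3 weeks and which are not shown, had 0 matches and 1 ETS match there. At least 3 CCAAT matches in the 250 bases before the start were found in 2.79% of 32851 mouse promoters. Over the 33 promoters that matched 23 tested members, CCAAT was in 6 (18.2%, against 33.8% of all), GGCGGGAA in 4 (12.1% against 1.86%) and CCGGAAG in 8 (24.2% against 6.91%). AGATAA and the interferon-stimulated response element were in 0 of 33, against 9.99% and 2.98% of all. Over those 250 bases, the GGCGGGAA matches were in Ube2a, Ube2e2, Ube2q1 and Ube2v1. The CCAAT matches were in Ube2d3, Ube2dnl2, Ube2e1, Ube2f, Ube2l3 and Ube2t. CCGGAAG matched in Ube2b, Ube2d3, Ube2f, Ube2j2, Ube2n, Ube2q1 and Ube2v1. These matches describe letters, not sites in use.

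Among the E2 enzymes of DNA repair and histone modification, Ube2t carried the largest fall. Ube2t, whose promoter held the 3 CCAAT matches, charges ubiquitin for Fancl, the ligase that marks Fancd2 in the Fanconi anaemia repair pathway. Its level was 2.39, 1.28 and 1.72 with normal diet, 2.64, 2.63 and 2.69 at 3 weeks, and 0.07, -0.67 and 0.38 at 7 weeks. The 7-week values lay below all others, and the 3-week values lay close together above normal diet. Ube2t fell by 1.87 ± 0.37 at 7 weeks against normal diet (3.66-fold lower, adjusted p = 0.00827) and fell by 2.73 ± 0.37 against 3 weeks (6.62-fold lower, adjusted p = 0.00102). The 3-week difference from normal diet was 0.86 ± 0.37 (adjusted p = 0.16). Leaving out any 1 of the 9 arrays kept both calls. Measured against normal diet replicate 3 alone the 7-week call was lost (-1.80, adjusted p = 0.128), and the 3-week difference was 0.93.

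The partners of Ube2t are in the list of 10 DNA damage and histone H2B ligases and substrates, of which 6 were lower at 7 weeks than with normal diet and 0 higher, against 18.8% of all genes lower. Fancd2 fell by 1.93 and Fancl by 1.76 there. Fanci, also in the list and singled out after its values were seen, was not called by limma there (-0.98, adjusted p = 0.255). Between 7 and 3 weeks it was at 0.60 (adjusted p = 0.475). Against 3 weeks, 5 of 10 were lower, beside 19.6% of all genes, with Fancd2 at -2.95 and Shprh, a ligase of the same DNA damage tolerance pathway as Rad18, at -2.94. Shprh was well above background on 3 arrays at 3 weeks and 2 arrays at 7 weeks. At 3 weeks 1 of 10, the DNA damage ligase Rnf8, was lower than with normal diet (-1.15), beside 7.88% of all genes. Against only normal diet replicate 3, Fancd2 was at -1.97, Fancl at -1.57 and Fanci at -0.72 at 7 weeks, and Rnf8 at -1.09 at 3 weeks.

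Ube2a and Ube2b are the mouse forms of yeast Rad6, which mark PCNA with Rad18 and histone H2B with Rnf20 and Rnf40. Ube2a stood at 5.17, 5.01 and 4.81 with normal diet, at 3.58, 3.59 and 3.62 at 3 weeks, and at 5.59, 4.56 and 5.13 at 7 weeks. Every 3-week value lay below every other value, and normal diet and 7 weeks overlapped. The fall at 3 weeks was 1.40 ± 0.30 (2.64-fold lower, adjusted p = 0.024), and the 7-week level was 1.50 ± 0.30 above that of 3 weeks (2.82-fold, adjusted p = 0.00533). At 7 weeks the difference from normal diet was 0.10 ± 0.30. A second, dimmer Ube2a probe gave 0.32 at 3 weeks, -1.86 at 7 weeks (adjusted p = 0.00701 over all probes) and -2.18 between 7 and 3 weeks (adjusted p = 0.00198). So the direction for Ube2a depended on the probe. Without any 1 of the 6 arrays compared, the 3-week call was lost (difference -1.31 to -1.49, adjusted p 0.0597 to 0.0839), as it was without normal diet replicates 1 and 2 together (-1.21, adjusted p = 0.448). The 7-week difference was then 0.29. Between 7 and 3 weeks the call was lost without scaling (0.53) and with the mean over probes (-0.34).

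Ube2b, the closest relative of Ube2a, was not called in any comparison. Its values were 6.53, 6.77 and 7.20 with normal diet, 7.49, 7.80 and 6.90 at 3 weeks, and 8.33, 6.31 and 6.70 at 7 weeks. The groups overlapped, and 7-week replicate 1 stood above all other arrays. The differences from normal diet were 0.57 ± 0.51 at 3 weeks and 0.28 ± 0.51 at 7 weeks, and 0.20 and -0.09 without normal diet replicates 1 and 2.

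The E2 enzymes that serve many ligases were led by Ube2l3, which works with HECT and RBR ligases such as parkin. Its level was 5.97, 5.99 and 5.80 with normal diet, 4.41, 4.65 and 4.73 at 3 weeks, and 6.33, 6.26 and 6.35 at 7 weeks. The 3 groups did not overlap. Ube2l3 fell by 1.32 ± 0.23 at 3 weeks (2.5-fold lower, adjusted p = 0.0142) and was 1.72 ± 0.23 higher at 7 than at 3 weeks (3.28-fold, adjusted p = 0.000998). The 7-week difference from normal diet was 0.39 ± 0.23 (adjusted p = 0.219). Of the 3 further Ube2l3 probes, 1 gave -1.31 at 3 weeks (adjusted p = 0.0166 over all probes) and 1.78 between 7 and 3 weeks (adjusted p = 0.000954). The other two gave -0.63 and -0.56 at 3 weeks and 0.60 and 0.12 between 7 and 3 weeks, none of them called. The difference between 7 and 3 weeks stayed called in all 20 alternatives, 2 of which are the same fit for this comparison. At 3 weeks it was lost without any 1 normal diet array (adjusted p 0.0501 to 0.063) or without 3-week replicate 1 or 2 (both 0.0548), and also without normal diet replicates 1 and 2 together (-1.20, adjusted p = 0.376). The 7-week difference was then 0.51.

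Ube2e3, an E2 enzyme that reaches the nucleus once charged, was lower at 7 weeks than in both other groups. Its level was 6.10, 5.23 and 6.12 with normal diet, 5.86, 5.89 and 5.89 at 3 weeks, and 4.69, 3.89 and 4.42 at 7 weeks. All 7-week values lay below the rest. It fell by 1.48 ± 0.33 against normal diet (2.8-fold lower, adjusted p = 0.0123) and by 1.55 ± 0.33 against 3 weeks (2.92-fold lower, adjusted p = 0.00689). A second probe gave -1.29 (adjusted p = 0.0128 over all probes) and -1.09 (adjusted p = 0.0171). The call against normal diet was lost without normal diet replicate 1 (-1.34, adjusted p = 0.0559) or 3 (-1.33, adjusted p = 0.053), or without replicates 1 and 2 together (-1.79, adjusted p = 0.113).

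Ube2e2, a relative of Ube2e3, was dim. It was well above background on 3 normal diet arrays, 2 arrays at 3 weeks and 1 array at 7 weeks. Values were -3.54, -2.58 and -3.93 with normal diet, -4.82, -4.32 and -4.34 at 3 weeks, and -2.98, -2.70 and -3.54 at 7 weeks. It thus passed the filter through normal diet alone, and 3 of the 6 values at 3 and 7 weeks were not well above background, so their order is not read as a difference in level. limma gave 1.42 ± 0.39 between 7 and 3 weeks (adjusted p = 0.0207), which counts among the 9 calls. That call was lost without 3-week replicate 1 (1.26, adjusted p = 0.0723), 3-week replicate 3 (1.50, adjusted p = 0.0505) or 7-week replicate 2 (1.24, adjusted p = 0.0576), and the gene was not tested where a probe had to be above background on all 9 arrays. Without scaling it was lost as well (0.46).

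The third relative, Ube2e1, spread widely. It was at 2.03, 2.02 and 1.33 with normal diet, 1.27, 1.67 and 1.64 at 3 weeks, and -2.46, 0.99 and 0.57 at 7 weeks. The 7-week values lay below the rest, with replicate 1 far below its group. The difference from normal diet at 7 weeks, -2.10 ± 0.77, was not called (adjusted p = 0.0682), and was -1.63 without normal diet replicates 1 and 2.

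Of the other E2 enzymes that serve many ligases, Ube2d2a was at -0.85 ± 0.32 at 3 weeks and -0.89 ± 0.32 at 7 weeks against normal diet, not called (adjusted p = 0.113 and 0.0626). Ube2d3 was at -0.47 and -0.73. Ube2z, which is charged by the second ubiquitin E1, Uba6, was at -0.65 and -0.22, and Ube2w, which can mark the amino terminus of substrates, at 0.82 and -0.50, none of them called. Without normal diet replicates 1 and 2 the differences at 3 and 7 weeks were -0.48 and -0.52 for Ube2d2a, -0.61 and -0.87 for Ube2d3, -0.29 and 0.14 for Ube2z, and 0.67 and -0.65 for Ube2w. The Ube2d genes and the pseudogene-like members Ube2d-ps and Ube2dnl2 are close in sequence, and cross-hybridisation between them was not tested.

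**Figure D2:**
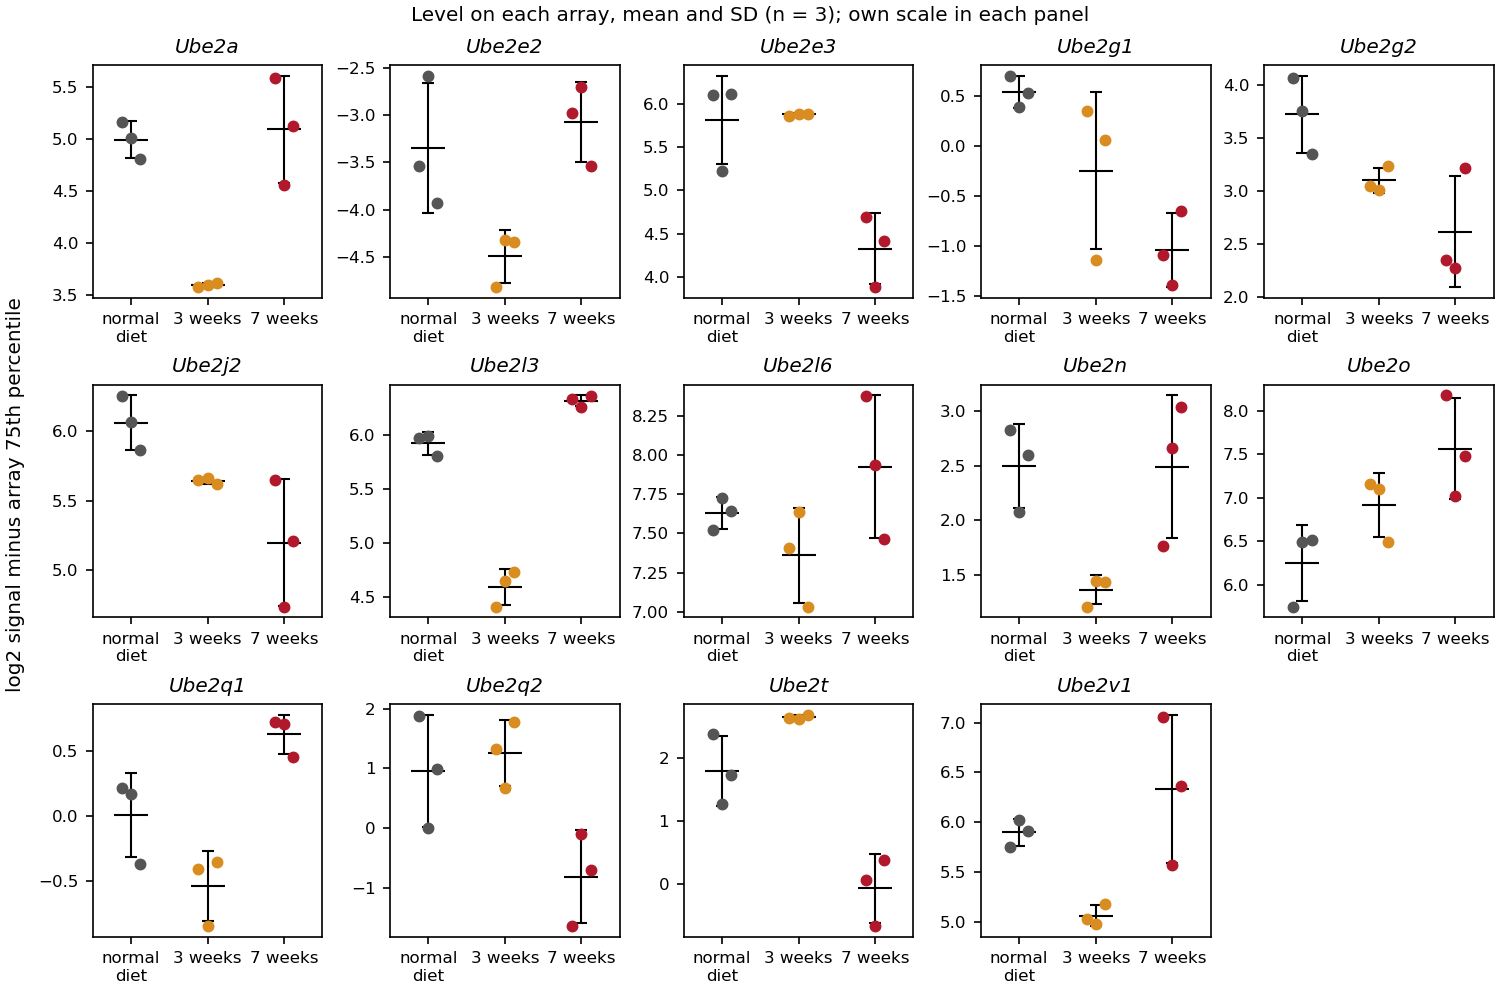
Log2 signal minus the array 75th percentile (y axis, own scale in each panel) on each of the 9 arrays for the 13 Ube2 members called in any comparison and Ube2l6; bars give mean and SD of the 3 arrays of a group. Ube2l3, Ube2a and Ube2n are lowest at 3 weeks, and Ube2t, Ube2e3 and Ube2q2 are lowest at 7 weeks.

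The E2 enzymes of ubiquitin-like proteins described here are Ube2m and Ube2f for NEDD8 and Ube2l6 for ISG15, and limma called 0 of these 3 in each comparison, with 0 at an unadjusted p under 0.05. Ube2m, which works with Rbx1, was at 4.91, 4.95 and 4.91 with normal diet, 4.21, 4.80 and 4.49 at 3 weeks, and 4.86, 3.52 and 4.93 at 7 weeks. Normal diet values sat within a narrow span, and 7-week replicate 2 lay below all others. Ube2f, which works with Rnf7, was at 4.65, 4.84 and 5.06, then 5.23, 5.68 and 4.62, then 6.84, 4.40 and 5.69 in the same order of groups. Its difference at 7 weeks was 0.79 ± 0.56 on the brightest probe (adjusted p = 0.304) and 1.76 on a dimmer probe (adjusted p = 0.0418 over all probes). Measured against normal diet replicate 3 alone it was 0.58 on the brightest probe.

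Among 17 genes of NEDD8 and cullin ligases, 2 were lower at 3 weeks, while 8 were lower and 2 higher at 7 weeks than with normal diet. Those called made up 11.8% at 3 weeks, close to the 11.4% of all genes, and 58.8% at 7 weeks, where 29.5% of all genes were called. Dcun1d4 is among the 2 lower at 3 weeks and the 8 lower at 7 weeks. It was well above background on 3 arrays with normal diet, 1 array at 3 weeks and 0 at 7 weeks. It thus passed the filter through normal diet alone, and its calls are not read as differences in level. At 7 weeks the NEDD8 E1 subunit Nae1 was at -2.12 and the scaffold Cul1 at -1.96, and against 3 weeks they were at -3.03 and -2.91. At 3 weeks the RING subunit Rbx1 was at -1.06. Against 3 weeks, 2 were higher and 6 lower, 47.1% of the list beside 37.2% of all genes. Among those 6 is a gene that was well above background on 0 arrays at 7 weeks. Against only normal diet replicate 3, Nae1 was at -2.34 and Cul1 at -2.27 at 7 weeks, and Rbx1 at -1.07 at 3 weeks.

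Ube2l6 was not called in any comparison. Its level was 7.52, 7.72 and 7.64 with normal diet, 7.41, 7.64 and 7.03 at 3 weeks, and 8.38, 7.93 and 7.46 at 7 weeks. The groups overlapped throughout. The differences were -0.27 ± 0.30 at 3 weeks (adjusted p = 0.591), 0.30 ± 0.30 at 7 weeks (adjusted p = 0.482) and 0.56 ± 0.30 between 7 and 3 weeks (adjusted p = 0.174). Without normal diet replicates 1 and 2 the first and second of these were -0.28 and 0.28. The signs turned under other scalings: 0.25 at 3 weeks, -0.37 at 7 weeks and -0.62 between them with quantile normalization. As a geometric mean over the arrays, the probe stood at 34.4% of the saturation signal. All 5 tested genes of ISG15 conjugation gave 0 limma calls in each comparison, with 0, 2 and 0 of them at an unadjusted p under 0.05.

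Ube2o was the member that rose at 7 weeks against normal diet. Its level was 5.75, 6.49 and 6.51 with normal diet, 7.15, 7.10 and 6.49 at 3 weeks, and 8.18, 7.02 and 7.48 at 7 weeks. All 7-week values lay above all normal diet values, and the 3-week group overlapped both. It rose by 1.31 ± 0.38 at 7 weeks (2.48-fold, adjusted p = 0.0316). At 3 weeks it was at 0.66 ± 0.38 (adjusted p = 0.275) and between 7 and 3 weeks at 0.65 ± 0.38 (adjusted p = 0.208), neither called. The sizes depended on scaling: the 7-week difference was 0.98 with quantile normalization (adjusted p = 0.0817) and 0.50 with no scaling (adjusted p = 0.281), and the 3-week difference was 1.47 with quantile normalization (adjusted p = 0.0442). The call was lost without normal diet replicate 1 (1.06, adjusted p = 0.12), 2 (1.43, adjusted p = 0.0535) or 3 (1.44, adjusted p = 0.0635), or 7-week replicate 1 (1.00, adjusted p = 0.053) or 3 (1.35, adjusted p = 0.05). Measured against normal diet replicate 3 alone it was lost as well (1.05, adjusted p = 0.337), and the 3-week difference was 0.40. Erythroid markers called higher at 7 weeks beside it were Alas2, Hbb-b2, Hbb-bt and Slc4a1, while 2 erythroid markers were lower.

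Ube2h was not analysed here, as 0 probes carried its RefSeq accession. Its partners were: of 11 subunits of the CTLH ligase, limma called 0 at 3 weeks, with 0 at an unadjusted p under 0.05. At 7 weeks 5 were lower than with normal diet and 0 higher, beside 18.8% of all genes lower. The substrate receptor Gid4 fell by 2.78 and the RING subunit Rmnd5a by 2.03. Maea, the other RING subunit, singled out after its values were seen, fell by 0.75 (adjusted p = 0.0424). Against 3 weeks, 3 of 11 were lower, beside 19.6% of all genes, with Rmnd5a at -3.16 and Gid4 at -2.73. Against only normal diet replicate 3, the 7-week differences were -2.67 for Gid4, -2.97 for Rmnd5a and -0.82 for Maea.

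Ube2n and its catalytically inactive partners Ube2v1 and Ube2v2 build chains that serve signalling and DNA repair and not degradation. All 3 were below normal diet at 3 weeks without overlap, a state of 49.5% of all genes in either direction. None was called by limma there on the probe that stands for the gene, and all 3 had an unadjusted p under 0.05, as did 4289 of 14506 genes. Ube2v1 stood at 5.75, 6.03 and 5.91 with normal diet, 5.03, 4.97 and 5.18 at 3 weeks, and 7.06, 5.57 and 6.37 at 7 weeks. The 3-week values were the lowest and 7-week replicate 1 the highest. Its difference was -0.84 ± 0.36 at 3 weeks (adjusted p = 0.163), and it was 1.27 ± 0.36 higher at 7 than at 3 weeks (2.42-fold, adjusted p = 0.0236). Of its 2 dimmer probes, 1 was called lower at 3 weeks (-1.22, adjusted p = 0.0283 over all probes) and higher at 7 than at 3 weeks (1.23, adjusted p = 0.00804). The other gave -0.33 and 0.83, not called. On the brightest probe the call between 7 and 3 weeks was lost without any 1 3-week array (1.23 to 1.33, adjusted p 0.0574 to 0.0666) or without normal diet replicates 1 and 2 (1.27, adjusted p = 0.0638), and was 0.72 with quantile normalization (adjusted p = 0.0879). The differences from normal diet without those replicates were -0.85 at 3 weeks and 0.42 at 7 weeks. Between 7 and 3 weeks the call was also lost without scaling (0.31). With only the compared groups, the fit of this comparison is the same as without normal diet replicates 1 and 2.

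Ube2n stood at 2.82, 2.07 and 2.59 with normal diet, 1.21, 1.45 and 1.44 at 3 weeks, and 1.77, 2.66 and 3.04 at 7 weeks. The 3-week values were again the lowest. Its difference was -1.13 ± 0.37 at 3 weeks (adjusted p = 0.0759), and it was 1.12 ± 0.37 higher at 7 than at 3 weeks (2.18-fold, adjusted p = 0.0387). A dimmer probe gave -0.89 and -1.42, not called. The call between 7 and 3 weeks was lost without normal diet replicate 1 or 3, any 1 3-week array, or 7-week replicate 2 or 3 (0.85 to 1.16, adjusted p 0.0509 to 0.107), or without normal diet replicates 1 and 2 together (1.12, adjusted p = 0.0755). The 3-week difference from normal diet was then -1.23. Between 7 and 3 weeks the call was also lost without scaling (0.16), with the authors' deposited table and with the replicate block. With only the compared groups, the fit of this comparison is the same as without normal diet replicates 1 and 2. With the mean over probes the difference between 7 and 3 weeks was -0.15.

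Ube2v2 stood at 6.32, 6.24 and 6.01 with normal diet, 5.29, 5.13 and 5.43 at 3 weeks, and 5.07, 5.63 and 5.63 at 7 weeks. Both low iron groups lay below normal diet. The differences were -0.90 ± 0.26 at 3 weeks (adjusted p = 0.0572) and -0.74 ± 0.26 at 7 weeks (adjusted p = 0.0609), neither called, and -0.73 and -0.57 without normal diet replicates 1 and 2.

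Ube2g2, Ube2j1 and Ube2j2 act at the endoplasmic reticulum, where misfolded proteins are marked for destruction. Ube2g2 stood at 4.07, 3.76 and 3.35 with normal diet, 3.05, 3.01 and 3.24 at 3 weeks, and 2.35, 2.28 and 3.22 at 7 weeks. Both low iron groups lay below normal diet, narrowly at the edge. It fell by 1.11 ± 0.33 at 7 weeks (2.16-fold lower, adjusted p = 0.0346), and a dimmer probe gave 0.42. The call was lost in all 9 cases with 1 array left out except that without 7-week replicate 3 (others -0.94 to -1.30, adjusted p 0.0512 to 0.128). It was also lost without normal diet replicates 1 and 2 together (-0.73, adjusted p = 0.442), and the difference was -0.34 as the mean over probes.

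Ube2j2 stood at 6.26, 6.07 and 5.86 with normal diet, 5.65, 5.66 and 5.62 at 3 weeks, and 5.65, 4.73 and 5.21 at 7 weeks. Neither low iron group overlapped normal diet. It fell by 0.87 ± 0.29 at 7 weeks, at the edge of the threshold (1.82-fold lower, adjusted p = 0.049995). Of its further probes, 1 gave -2.04 at 7 weeks (adjusted p = 0.00435 over all probes) and the other -0.54. The call was lost with each array left out except 7-week replicate 1 (-0.64 to -0.97, adjusted p 0.0708 to 0.161), and without normal diet replicates 1 and 2 together (-0.67, adjusted p = 0.453). Ube2j1 was at -0.73 at 3 weeks and -0.44 at 7 weeks, not called, while its dimmest probe was at -2.79 at 7 weeks (adjusted p = 0.00456 over all probes). Without normal diet replicates 1 and 2 the brightest Ube2j1 probe was at -0.76 and -0.47.

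Of 11 other genes of endoplasmic reticulum degradation, 1 was higher at 3 weeks, the membrane ligase Rnf5 at 1.35. At 7 weeks 1 was lower than with normal diet, the ligase Marchf6 at -1.72. Each is 9.09% of the list, below the 11.4% and 29.5% of all genes called at these times. Measured against normal diet replicate 3 alone the values were 1.05 for Rnf5 and -2.25 for Marchf6. Between 7 and 3 weeks 2 were higher and 4 lower (54.5% of the list beside 37.2% of all genes), with Aup1, which recruits Ube2g2, at -2.16 and Rnf5 at -2.10.

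The E2 enzymes that extend degradative chains were below 0 at both times for all 5 tested, where 8438 and 8523 of 14506 genes were also below 0. Of the 5, 2 were called at 7 weeks, Ube2g1 and Ube2g2, beside 29.5% of all genes. Ube2g1, which works with cullin ligases, stood at 0.70, 0.39 and 0.53 with normal diet, 0.35, -1.14 and 0.06 at 3 weeks, and -1.09, -1.38 and -0.65 at 7 weeks. The 7-week values lay below normal diet, and 3-week replicate 2 sat among them. It fell by 1.58 ± 0.40 at 7 weeks (3.0-fold lower, adjusted p = 0.0196). The call was lost without normal diet replicate 1 (-1.50, adjusted p = 0.074) or 3 (-1.59, adjusted p = 0.0604) or 7-week replicate 2 (-1.41, adjusted p = 0.0505), or without normal diet replicates 1 and 2 together (-1.57, adjusted p = 0.233). Ube2k, Ube2r2 and Ube2s, the chain extender of the anaphase-promoting complex, were at -0.44, -0.31 and -0.31 at 7 weeks, not called, and at -0.84, -0.83 and -0.45 without normal diet replicates 1 and 2.

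Ube2q1 and Ube2q2 are E2 enzymes with a long amino-terminal extension. Ube2q2 stood at 1.88, 0.01 and 0.99 with normal diet, 1.32, 0.68 and 1.77 at 3 weeks, and -1.64, -0.10 and -0.70 at 7 weeks. The 7-week values were the lowest, with a small gap to normal diet. It fell by 1.77 ± 0.55 at 7 weeks against normal diet (3.42-fold lower, adjusted p = 0.0408) and by 2.07 ± 0.55 against 3 weeks (4.2-fold lower, adjusted p = 0.018). A dimmer probe gave -2.49 (adjusted p = 0.00315 over all probes) and -1.70 (adjusted p = 0.00686). The call against normal diet was lost without normal diet replicate 1 or 3, any 1 3-week array, or 7-week replicate 1 or 3 (-1.31 to -1.83, adjusted p 0.0501 to 0.145), or without normal diet replicates 1 and 2 together (-1.80, adjusted p = 0.208). That against 3 weeks was lost without 3-week replicate 1 (-2.04, adjusted p = 0.0527) or 3 (-1.81, adjusted p = 0.0694).

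Ube2q1 moved the other way. It stood at 0.21, 0.17 and -0.37 with normal diet, -0.41, -0.85 and -0.36 at 3 weeks, and 0.72, 0.71 and 0.45 at 7 weeks. The 7-week values were the highest. It was 1.16 ± 0.28 higher at 7 than at 3 weeks (2.24-fold, adjusted p = 0.0111) and kept that call with any 1 array left out, but was 0.20 without scaling (adjusted p = 0.583). Against normal diet it was at -0.54 ± 0.28 at 3 weeks and 0.62 ± 0.28 at 7 weeks, neither called, and at -0.17 and 1.00 without normal diet replicates 1 and 2.

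The 4 members not tested were Ube2cbp, Ube2d1, Ube2ql1 and Ube2u, each of which failed the filter on dim probes in every group. Ube2cbp binds an E2 enzyme and is not one itself. Ube2d1 was well above background on 1 array, 7-week replicate 2, at -0.25, and lay between -5.13 and -7.28 on the rest.

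The spread within groups was largest at 7 weeks. The median SD of the 29 members was 0.33 with normal diet, 0.24 at 3 weeks and 0.52 at 7 weeks (n = 3 each), and that of all genes was 0.29, 0.32 and 0.58. An SD over 0.5 was found for 6, 4 and 16 members. The widest was Ube2e1 at 7 weeks, with an SD of 1.88. Of the 7-week arrays, replicate 2 held the lowest value in 21 of 29 members (72.4%, against 35.1% of all genes), and replicate 1 the highest in 15 (51.7%, against 38.5%).

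Several probes existed for 17 tested members, with 27 further probes beside the brightest one that stands for the gene. A further probe had the opposite sign in 8 of 27 cases at 3 weeks, 5 at 7 weeks and 5 between 7 and 3 weeks, where over all genes 40.9%, 29.6% and 32.2% did. The median gap between the highest and the lowest probe of a member was 0.90, 0.94 and 0.99, and of all such genes 0.79, 0.82 and 1.09. At 7 weeks 8 further probes were called lower than with normal diet and 1 higher, beside 24.7% lower and 7.54% higher for further probes of all genes. Called further probes of members that were themselves not called were found for Ube2a, Ube2d3, Ube2j1, Ube2k and Ube2w, lower, and for Ube2f, higher. The values were -1.65 for Ube2d3 (adjusted p = 0.0185) and -1.75 for Ube2k (adjusted p = 0.00622), and the Ube2w probe was not well above background on any 7-week array.

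**Figure D3:**
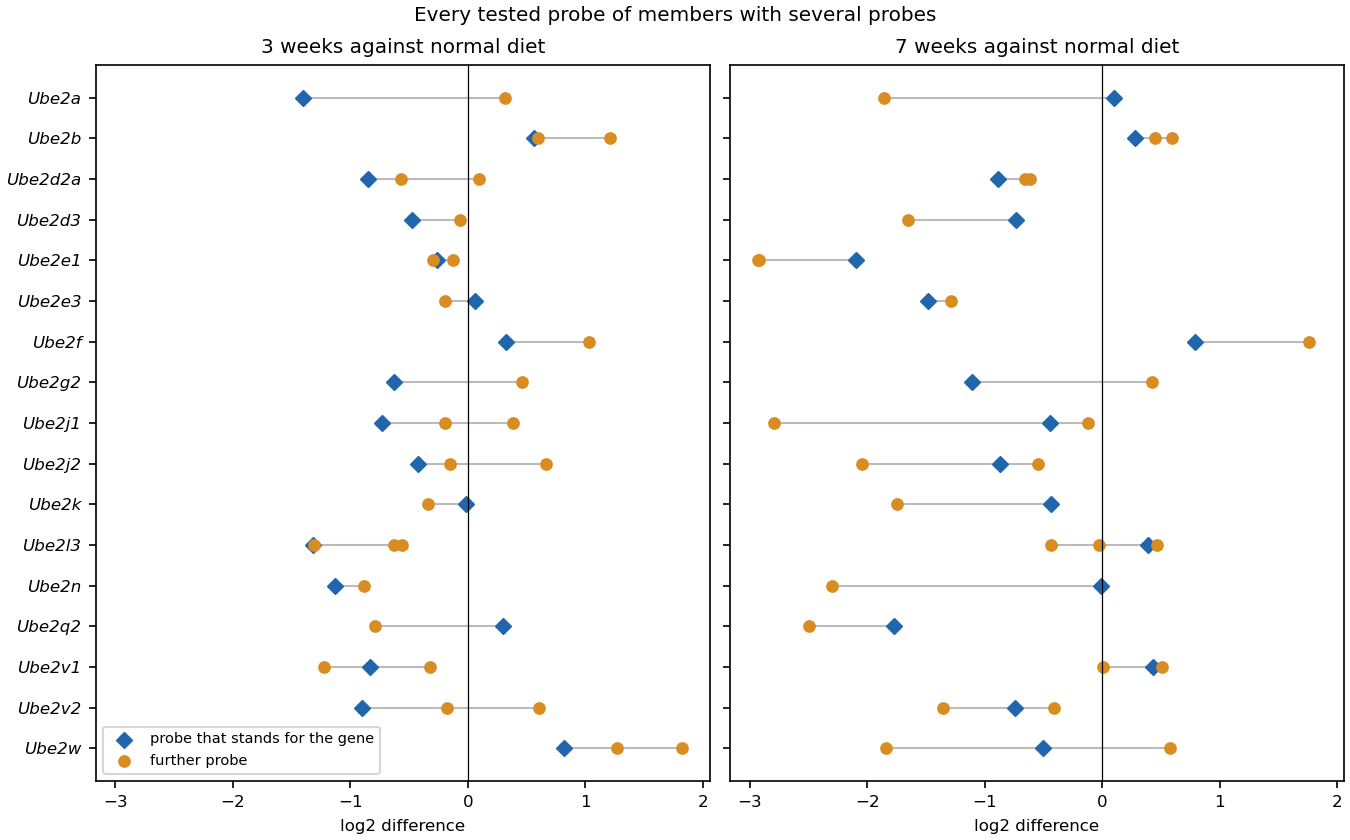
Log2 difference from normal diet (x axis) at 3 weeks and at 7 weeks for every tested probe of the 17 members with several probes (y axis); diamonds mark the brightest probe, which stands for the gene, and circles the further probes. At 7 weeks the probes of Ube2a, Ube2j1 and Ube2n lie far apart, with Ube2a at 0.10 and -1.86, while those of Ube2e3 and Ube2b lie close together.

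Upstream of the E2 enzymes, the 10 E1 enzymes tested gave 1 call at 3 weeks, lower, then 2 higher and 4 lower at 7 weeks. All genes had 11.4% and 29.5% called at these times, so the 3-week count is near that share. The lists share genes: the 4 lower at 7 weeks are counted again in the SUMO or the NEDD8 list. At 3 weeks Mocs3, the E1 of Urm1, was at -2.48. The main ubiquitin E1, Uba1, singled out after its values were seen, was 1.47 higher at 7 weeks than with normal diet and 1.84 higher than at 3 weeks. Against only normal diet replicate 3, Mocs3 was at -2.45 and Uba1, at 7 weeks, at 1.44. Against 3 weeks, 3 of 10 were higher and 5 lower, 80.0% of the list beside 37.2% of all genes. Among those 5 is a gene that was well above background on 2 arrays at 7 weeks.

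The modifiers themselves form a list of 14 ubiquitin and ubiquitin-like genes. Of these, 4 were lower at 3 weeks and 3 were higher at 7 weeks than with normal diet, beside 7.88% and 10.7% of all genes. Between 7 and 3 weeks, 7 of 14 were higher and 0 lower, beside 17.6% and 19.6% of all genes. Ubl5 was at -2.06 and Urm1 at -1.68 at 3 weeks. Nedd8, which is also counted in the NEDD8 list, rose by 1.02 at 7 weeks. In the 7 against 3 weeks comparison Ubl5 was at 2.36 and Fau, a ubiquitin-like protein fused to a ribosomal protein, at 2.34. Without normal diet replicates 1 and 2, Ubl5 was at -2.04 and Urm1 at -1.53 at 3 weeks, and Nedd8 at 0.98 at 7 weeks.

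Of 15 other genes of SUMO conjugation, a ubiquitin-like pathway, 1 was lower at 3 weeks and 4 at 7 weeks than with normal diet, with 0 higher. These are 6.67% and 26.7% of the list, both below the 11.4% and 29.5% of all genes called. The SUMO protease Senp3 was at -1.67 at 3 weeks. At 7 weeks both subunits of the SUMO E1 enzyme were lower, Sae1 at -1.82 and Uba2 at -1.43. From 3 to 7 weeks 1 was higher, Senp3 at 1.98, and 2 were lower, with Sae1 at -2.89 (3 of 15 called, beside 37.2% of all genes). Measured against normal diet replicate 3 alone, Senp3 was at -1.42 at 3 weeks, and Sae1 and Uba2 were at -1.92 and -1.07 at 7 weeks.

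Of 8 E2 enzymes and variants with other names, 2 were lower at 3 weeks, 3 at 7 weeks, and 3 between 7 and 3 weeks, with 0 higher in each. They made up 25.0%, 37.5% and 37.5% of the list, beside 11.4%, 29.5% and 37.2% of all genes, so the last is at the level of all genes. Birc6, a giant E2 and E3 hybrid as Ube2o is, was at -2.91 at 3 weeks and -3.23 at 7 weeks. Uevld was at -2.13 at 3 weeks. It is also among the 3 called at 7 weeks, where it was well above background on 1 array. Aktip and Atg10 are among the 3 called lower between 7 and 3 weeks. Each was well above background on 3 arrays at 3 weeks and 1 array at 7 weeks. These 7-week calls rest in part on values not well above background. Against only normal diet replicate 3, Birc6 was at -2.45 and -2.77, and Uevld at -1.69.

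Of 26 deubiquitinases, which reverse conjugation, 1 was higher and 4 lower at 3 weeks, and 4 were lower at 7 weeks. They made up 19.2% of the list at 3 weeks, beside 11.4% of all genes, and 15.4% at 7 weeks, below the 29.5% of all genes. Cyld, which cuts the chains that Ube2n builds, was at -2.36 at 3 weeks. Usp9x fell by 2.47 at 7 weeks and Usp1, which removes ubiquitin from Fancd2, by 1.74. Against 3 weeks, 1 was higher and 5 lower, with Usp9x at -3.75 (23.1% of the list, below the 37.2% of all genes). Usp22 is the gene called higher at 3 weeks and is among the 5 called lower against 3 weeks. It was well above background on 1 array with normal diet, 3 arrays at 3 weeks and 0 at 7 weeks. It thus passed the filter through the 3-week group alone, and its calls are not read as differences in level. Without normal diet replicates 1 and 2, Cyld was at -2.32 at 3 weeks, and Usp9x and Usp1 were at -2.78 and -1.80 at 7 weeks.

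**Figure D4:**
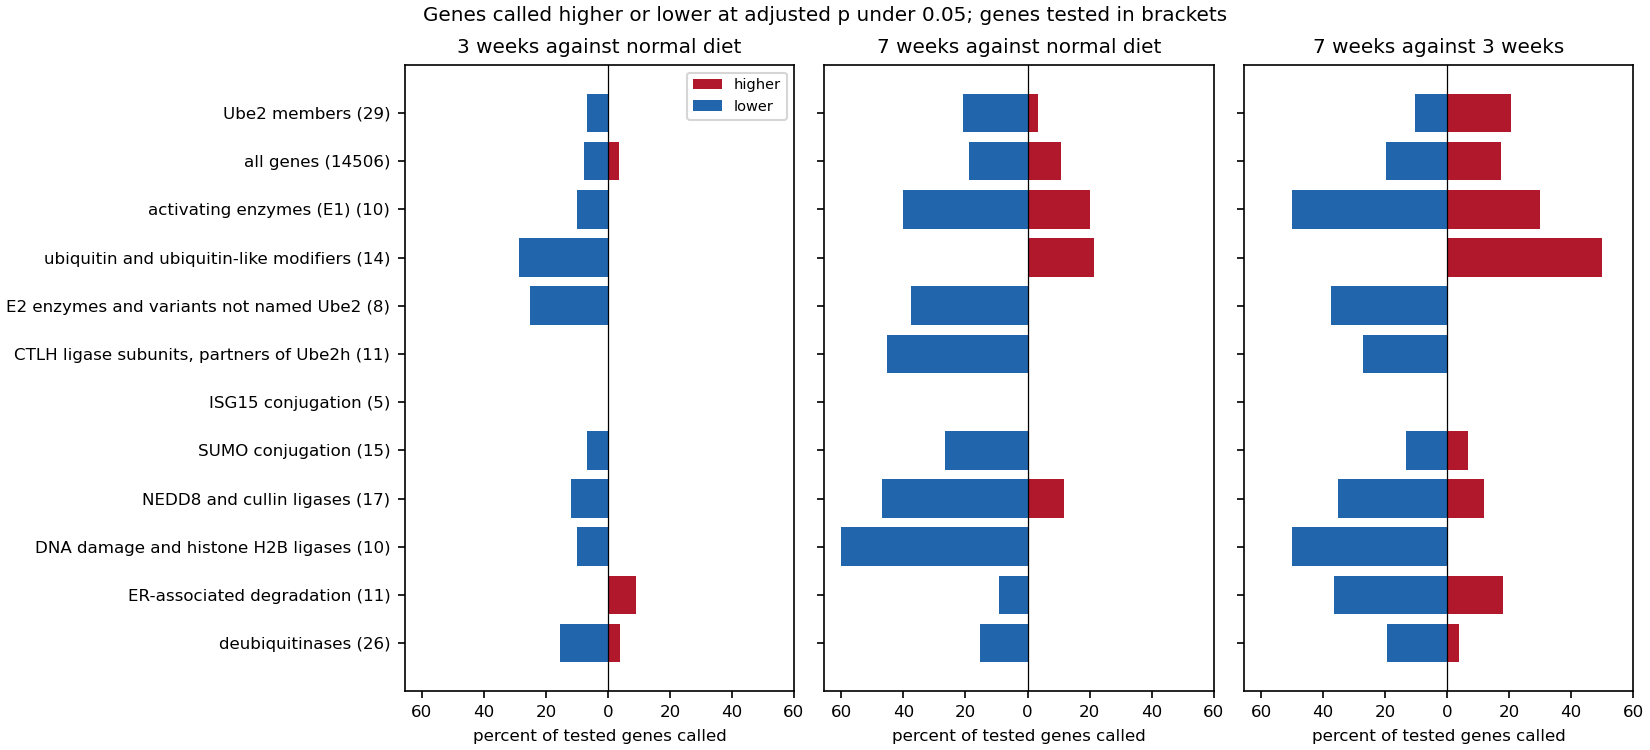
Percent of tested genes called higher (right, red) or lower (left, blue) in each of 10 related lists, the Ube2 members and all genes (y axis, genes tested in brackets), 1 panel per comparison. Between 7 and 3 weeks the modifier bar holds 7 of 14 genes on the higher side and 0 on the lower, where all genes have 17.6% and 19.6%; the DNA damage list has 60.0% lower at 7 weeks against normal diet, and all genes 18.8%.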

How the data were processed

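Expression was measured on 9 Agilent 1-colour arrays, 3 per group, each of 62976 spots, 59305 of them not controls and 0 saturated. Scanner intensity values were made by the authors with Feature Extraction 10.7.3.1, per the file headers, which subtracted background and detrended each array. The authors' deposited table of log2 values, whose scaling and centring are not given in the sources used here, followed the scanner values (r 0.997 to 0.999 after centring each probe) and served as an alternative; its column medians were 0, and -0.025 for 7-week replicate 2.

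The log2 processed signal minus each array's 75th percentile was averaged over spots of a probe. Of 55681 probes, 26413 were named through RefSeq accessions (reference assembly GRCm38, names only). The brightest probe stood for a gene, and a gene was kept where some group had it well above background on its 3 arrays. limma 3.58.1 in R 4.3.3 (lmFit, eBayes) was fitted over 14506 genes and 9 arrays, two-sided, with Benjamini-Hochberg adjustment and a threshold of 0.05, and the script was tested on simulated data. Normexp (offset 50) used the median spot signal, as the mean signal was not used here.

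Members and lists were chosen with earlier results of these data known. Named with values on every array were members called in any comparison, Ube2o and Ube2l6; Ube2b, Ube2e1, Ube2f, Ube2m and Ube2v2 were added after their values were seen. From each related list at most the 2 called genes of largest change were named for each comparison. Further list genes were named for dim values or, where stated, after their values were seen. The labels call the samples biological replicates without naming animals, so p-values measure the spread between these samples. The number of arrays limits precision. Promoter sequences are from RefSeq, matched by symbol; Ube2o had none. 2 symbols of the family are not reported here.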

Additional observations from a re-analysis of the deposited data

Results flagged for a closer look

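For 9 members the effects of 3 and 7 weeks of low iron diet, each against the same normal diet arrays, differed in a direct limma test of 7 against 3 weeks (adjusted p under 0.05 over all genes, beside 37.2% of all genes called). The difference was 1.72 for Ube2l3, 1.50 for Ube2a, 1.42 for Ube2e2, 1.27 for Ube2v1, 1.16 for Ube2q1 and 1.12 for Ube2n, all higher at 7 weeks. It was -1.55 for Ube2e3, -2.07 for Ube2q2 and -2.73 for Ube2t, all lower at 7 weeks. The Ube2e2 probe was well above background on 2 of 3 arrays at 3 weeks and 1 of 3 at 7 weeks, so its difference rests in part on values not well above background. Groups of 3 samples were not tested for outliers.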

How the results depend on the processing

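The numbers of members called were 2 at 3 weeks and 7 at 7 weeks, both set against normal diet, and 9 for 7 against 3 weeks. The first became 1 without scaling, 1 with the mean over probes, 8 with only the compared groups in the fit and 0 without normal diet replicates 1 and 2 (limma; 2 members at an unadjusted p under 0.05). The second became 4 with quantile normalization, 15 without scaling, 3 with the replicate number as a block, 3 with only the compared groups and 0 without normal diet replicates 1 and 2 (4 at an unadjusted p under 0.05). The third stayed between 7 and 13 under every alternative other than leaving out 1 array. With only the compared groups, 1627 of all 14506 genes were higher and 2789 lower at 3 weeks, and 998 and 1821 at 7 weeks. Without scaling these were 492 and 474 at 3 weeks, and 454 and 6646 at 7 weeks. Leaving out 1 array gave 0 to 5, 1 to 8 and 5 to 11 calls. The first count was 0 without any 1 normal diet array or 3-week replicate 1 or 2, 1 without 3-week replicate 3 and 5 without 7-week replicate 1. The second was 1 without normal diet replicate 1 or 3, and 4 without normal diet replicate 2, any 1 3-week array or 7-week replicate 3. The third was 5 without 3-week replicate 1 or 3. Over all genes, 1653 calls at 3 weeks became 0 without normal diet replicates 1 and 2, with 1588 at an unadjusted p under 0.05.

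Differences whose sign turned were -0.34 for Ube2a and -0.15 for Ube2n between 7 and 3 weeks with the mean over probes. Those of Ube2l6 were 0.25 at 3 weeks with quantile normalization, -0.37 and -0.51 at 7 weeks with quantile normalization and without scaling, and -0.62 and -0.40 between 7 and 3 weeks. Those of Ube2o between 7 and 3 weeks were -0.49 and -0.32. The cause was not tested. Between 7 and 3 weeks, Ube2t, Ube2l3 and Ube2e3 kept their call and direction in all 20 alternatives.

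The replicate block gave 2, 3 and 8 calls. Same-numbered arrays of different groups had deviations correlated between -0.17 and 0.29, and not every array correlated best with its own number. The numbers were therefore not treated as pairs, though so few correlations cannot exclude a pairing. A slide block was not run, as each slide holds 1 group.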
